A study of Mus musculus with 8 samples.

Results

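The Hox genes of the 4 mouse clusters were followed in the adult oviduct after neonatal treatment with genistein (Gen), a soy phytoestrogen that binds estrogen receptors. Members were taken by name: every noncontrol probe whose gene name in the array files was Hoxa, Hoxb, Hoxc or Hoxd followed by a paralog number, with no use of its signal. This rule found 49 probes for 38 genes, of 41174 noncontrol probes and 27962 distinct gene names. HoxA was represented by 11 genes, HoxB by 10, HoxC by 8 and HoxD by 9. Hoxc11 was not analysed here.

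All 8 samples were oviducts of CD-1 mice collected on gestation day (GD) 2, at 48 hr after hCG, when the mice were 6 to 8 weeks old. As pups, mice of the 4 control samples had been injected under the skin with corn oil on postnatal day (PND) 1 through PND5, and those of the 4 Gen samples with Gen in corn oil at 50 mg/kg/day on the same days. Both groups had later been superovulated and mated, and embryos were taken out of the oviducts before RNA isolation. Each RNA was hybridized alone to 1 Agilent whole-genome array in a single color. Whole oviducts hold epithelium, stroma and muscle together, so a lower signal from fewer cells of a type cannot be told apart from less RNA per cell.

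Hox genes encode homeodomain transcription factors that give cells a position along the head-to-tail axis. Within a cluster the genes sit in the order of their expression domains, from paralog group 1, expressed most anteriorly, to group 13, expressed most posteriorly. In the female reproductive tract the posterior HoxA genes are laid out along the Müllerian duct: Hoxa9 is known from the oviduct, Hoxa10 and Hoxa11 from the uterus, and Hoxa13 from the cervix and vagina. Groups 1 to 3 are called anterior here, groups 4 to 8 central and groups 9 to 13 posterior.

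The probes themselves set which Hox transcript each signal can stand for, because the homeobox is much alike from gene to gene. Each probe was 60 bases long. Over 1165 pairs of probes for different Hox genes, the longest run of identical bases had a median of 6, and only 2 pairs shared 14 bases or more. Probes were compared with each other only, so matches to the transcripts of other Hox genes were not tested. Both pairs included the Hoxa9 probe, which shared 22 bases of the homeobox with the Hoxb3 probe and 14 with the Hoxd10 probe. Only unbroken runs were measured, and some bases outside these runs also matched in both pairs. Whether any RNA bound to both probes of a pair was not tested. Probe positions are those of the array files (build mm7, NCBI35), and exon and UTR annotation of that build was not used here.

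Detection fell off at both ends of the clusters, and most at the posterior end. Signal well above background was recorded on all 8 arrays for 29 of the 38 genes, and 35 of the 49 probes entered the test because they were well above background on at least 4 of the 8 arrays, whichever the group. All 15 central genes were tested, and so were 6 of 8 anterior genes and 8 of 15 posterior genes. In groups 12 and 13, 0 of 6 genes were tested. Hoxa13, Hoxb1, Hoxc12, Hoxc13, Hoxd1 and Hoxd12 stayed at background on all 8 arrays. Hoxb13 was detected on 2 Gen arrays, Hoxd11 on 1 Gen array, and Hoxd13 on 1 Gen array at 1 of its 2 probes. For none of these did the detected arrays give a fold bound above 1, so no fold is given. The highest Hoxd11 signal, 32.2, was in control replicate 2, where it was not well above background. On the Gen arrays Hoxd11 read 7.69 to 18.2. Background readings were also lower on the Gen arrays, as given below for Hoxa13, and their part in these detections was not tested.

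Hoxa13, the most posterior HoxA gene and a marker of cervix and vagina, had 2 probes, at chr6:52222226-52222285 and chr6:52222385-52222444 (mm7, minus strand). The second of them reads as follows, 5′ to 3′ on the sense strand, with the longest run it shares with a probe of another Hox gene in capitals.
Hoxa13: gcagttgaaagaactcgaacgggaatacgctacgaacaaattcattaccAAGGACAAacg
At this probe the scaled signal was 8.75, 7.24, 14.2 and 6.15 in control replicates 1 to 4 and 3.40, 3.16, 3.76 and 4.92 in Gen replicates 1 to 4. None of these values was well above background. At the other probe the signals ran from 6.52 to 15.0 in controls and from 3.86 to 8.10 in Gen-treated mice, again all at background. Probes not detected on any array averaged 7.11 to 12.3 before scaling on the control arrays and 4.85 to 7.88 on the Gen arrays, so the lower Hoxa13 readings in Gen-treated mice lie on the same side as the background itself. Hoxa13 was therefore not detectable on these arrays in either group.

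Across the 35 Hox probes tested, 4 were lower in Gen-treated mice at an unadjusted limma p under 0.01, the threshold used in the study, and 0 were higher. These made up 11.4% of the Hox probes, beside 3.33% of all 29560 probes tested that were lower and 3.83% that were higher at that threshold. The 4 probes belonged to Hoxa9, Hoxa10, Hoxb5 and Hoxb6. At a Benjamini-Hochberg limma adjusted p under 0.05, 0 Hox probes were called, beside 0.9% of all probes. At an unadjusted p under 0.05 the Hox count was 9, with 7 lower and 2 higher, where all probes gave 8.66% lower and 10.4% higher. The median log2 difference (Gen minus control) of the Hox probes was 0.04, and that of all probes 0.02. Leaving out control replicate 2, control replicate 3, Gen replicate 1, Gen replicate 2 or Gen replicate 4 reduced the 4 lower probes to 2. Over all probes, lower calls went from 985 to 533, 626, 891, 797 and 729 in those cases, in that order. Without control replicate 1 there were 6 lower Hox probes and 1116 over all probes. The counts were 3 and 631 without control replicate 4, and 4 and 808 without Gen replicate 3.

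**Figure D1:**
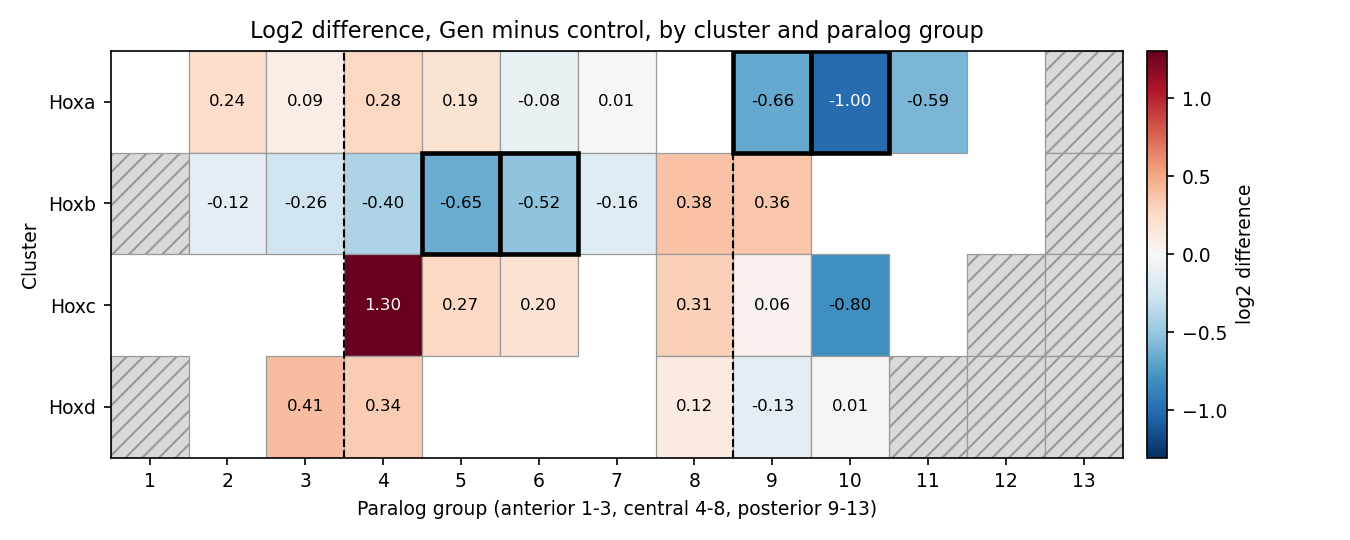
Log2 difference between Gen-treated mice and controls (color and number in each cell, 4 arrays a group) for each Hox gene, by cluster (rows) and paralog group (columns), at the gene's brightest probe. Thick frames mark an unadjusted limma p under 0.01, hatched cells are genes not tested because too few arrays were well above background, and white cells hold no gene, no probe or a gene not shown here. Values below zero stand in Hoxb2 to Hoxb7, in Hoxa9 to Hoxa11, and singly at Hoxa6 (-0.08), Hoxc10 (-0.80) and Hoxd9 (-0.13).

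All 3 tested posterior HoxA genes had log2 differences below zero, from -1.001 to -0.59. Hoxa9, which marks the oviduct in this tract, gave signals of 1772, 2461, 2393 and 2123 in control replicates 1 to 4 and of 1282, 1478, 1481 and 1255 in Gen replicates 1 to 4. Every Gen value was below every control value. The difference was -0.66 ± 0.13 (SE, n = 4 and 4; 95% interval -0.97 to -0.36), or 63.1% of the control signal, with limma adjusted p = 0.0626. The call at 0.01 held with each of the 8 arrays left out in turn, but was lost without scaling between arrays (-0.42, limma adjusted p = 0.538).

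Hoxa10, a gene needed for uterine identity and implantation, had the lowest difference among the Hox probes. Its probe lies at chr6:52195026-52195085 (mm7, minus strand). The signals were 1243, 2728, 2564 and 1475 in control replicates 1 to 4, and 695, 1095, 955 and 1102 in Gen replicates 1 to 4. The groups did not overlap, but control replicates 1 and 4 were close to the highest Gen values, while control replicates 2 and 3 were well above them. The log2 difference was -1.001 ± 0.29 (SE; 95% interval -1.66 to -0.35), or 50.0% of the control signal, with limma adjusted p = 0.128. With single arrays left out, the call at 0.01 held in 2 of 8 cases and the difference lay between -1.20 and -0.82. It was lost without scaling between arrays (-0.76, limma adjusted p = 0.232) and under the unmoderated test of the methods.

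Hoxa11, which acts beside Hoxa10 in the uterine stroma, was measured at chr6:52205477-52205536 (mm7, minus strand). Signals were 453, 895, 690 and 300 in control replicates 1 to 4 and 308, 583, 211 and 427 in Gen replicates 1 to 4. The groups overlapped, with control replicate 4 below 3 of the 4 Gen arrays. The log2 difference of -0.59 ± 0.41 (SE; 95% interval -1.52 to 0.34) did not pass the test (limma adjusted p = 0.456, exact two-sided permutation p = 0.229). That interval includes zero as well as the estimates for Hoxa9 and Hoxa10.

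**Figure D2:**
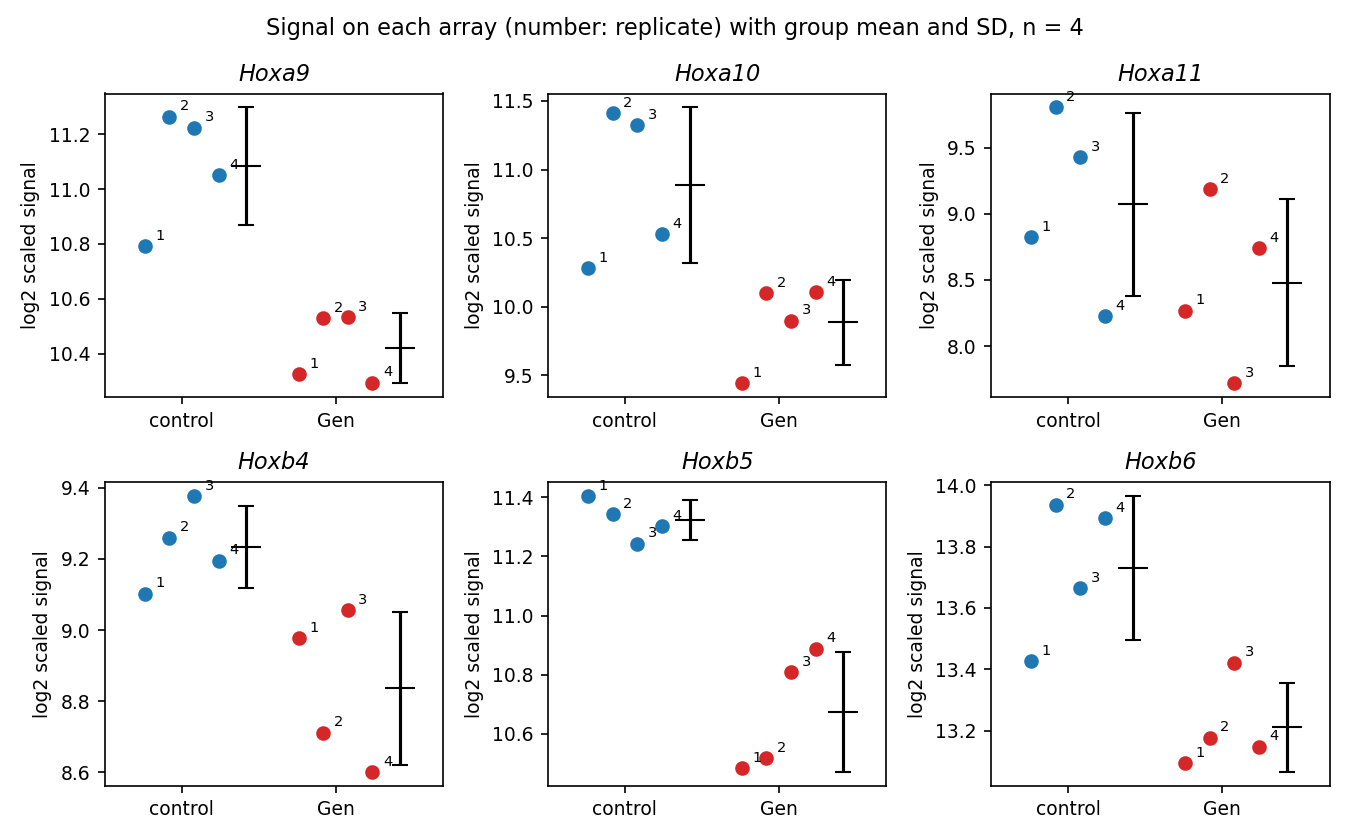
Scaled log2 signal (vertical axis) on each array for 6 Hox genes, with the replicate number beside each point and the mean and SD of each group (n = 4) drawn to its right. Control (blue) and Gen (red) points do not overlap for Hoxa9, Hoxa10, Hoxb4, Hoxb5 and Hoxb6, whereas those of Hoxa11 do.

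Proximal promoters of these 3 neighbors are shown because the genes lay on the same side of zero, and because estrogen receptors bind the element GGTCANNNTGACC. The sequences are from RefSeq (build GRCm38.p6), which gave promoters for 22 of the 38 genes (24 promoters), and they cover the 250 bases before the annotated start, read 5′ to 3′ on the minus strand, with GGTCA, one arm of that element, in capitals wherever it stands on either strand.
Hoxa9, chr6:52227371-52227620: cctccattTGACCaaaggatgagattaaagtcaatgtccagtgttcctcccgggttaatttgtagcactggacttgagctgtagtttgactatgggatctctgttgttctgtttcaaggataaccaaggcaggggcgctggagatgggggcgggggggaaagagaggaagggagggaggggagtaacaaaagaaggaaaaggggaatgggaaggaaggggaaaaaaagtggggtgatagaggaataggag
Hoxa10, chr6:52240855-52241104: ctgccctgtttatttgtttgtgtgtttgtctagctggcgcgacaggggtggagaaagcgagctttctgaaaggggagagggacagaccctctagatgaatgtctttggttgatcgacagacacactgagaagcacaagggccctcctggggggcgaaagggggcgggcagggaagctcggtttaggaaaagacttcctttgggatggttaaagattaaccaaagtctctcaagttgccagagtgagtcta
Hoxa11, chr6:52245811-52246060: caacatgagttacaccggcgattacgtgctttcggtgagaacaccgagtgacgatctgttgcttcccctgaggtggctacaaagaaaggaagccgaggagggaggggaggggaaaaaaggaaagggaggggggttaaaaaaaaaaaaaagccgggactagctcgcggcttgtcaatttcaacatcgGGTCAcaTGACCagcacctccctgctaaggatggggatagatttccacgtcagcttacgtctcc
Hoxa9 held 1 such arm, Hoxa11 held 2, and Hoxa10 held 0, at this start and at a second annotated start. GGTCA on either strand was present in 11 of 24 Hox promoters (45.8%) and in 35.2% of all 32851 promoters of the same length. The full palindrome GGTCANNNTGACC was in 0 of the 24 Hox promoters, beside 0.0639% of all promoters. TGATNNAT, a letter pattern bound by Hox proteins with Pbx partners, was in 16.7% of Hox promoters and in 7.68% of all. Such matches describe letters in these windows only.

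In HoxB the lower values lay in the middle of the cluster. All 6 probes tested for Hoxb3 through Hoxb7 had differences below zero, with a median of -0.38 on the log2 scale. Of all probes tested, 47.1% were below zero. This run was not a planned group and was delimited after the signs were seen, so its count is no test. Without scaling between arrays 5 of the 6 were below zero, and with scaling to smooth muscle markers 4. Hoxb5, a central gene known from lung, gut and nerve development, was measured at chr11:96414855-96414914 (mm7, plus strand). Its signals were 2712, 2596, 2424 and 2524 in control replicates 1 to 4 and 1433, 1466, 1794 and 1895 in Gen replicates 1 to 4. Controls lay close together, and all 4 Gen values were below them. The difference of -0.65 ± 0.12 (SE; 95% interval -0.92 to -0.37), or 63.8% of control, had the smallest p of the Hox probes (limma adjusted p = 0.0533), and its call at 0.01 held with each array left out. Without scaling between arrays the call was lost (-0.41, limma adjusted p = 0.563).

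Hoxb6, the next gene along the cluster, was read by 2 probes. At the brighter one, at chr11:96410288-96410347 (mm7, plus strand), signals were 11000, 15680, 12990 and 15220 in control replicates 1 to 4 and 8745, 9260, 10970 and 9075 in Gen replicates 1 to 4. Control replicate 1 and Gen replicate 3 all but touched. The difference was -0.52 ± 0.14 (SE; 95% interval -0.84 to -0.20), or 69.7% of control, with limma adjusted p = 0.117, and the call at 0.01 held in 2 of the 8 cases with an array left out and was lost without scaling (-0.28, limma adjusted p = 0.694). The second probe, at chr11:96408006-96408065, gave -0.37 (95% interval -0.80 to 0.06) and was not called (limma adjusted p = 0.324), with overlapping groups of 568 to 825 in controls and 417 to 658 in Gen-treated mice.

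Hoxb4, known for its role in blood stem cells, gave 550, 613, 665 and 586 in control replicates 1 to 4 and 504, 419, 532 and 389 in Gen replicates 1 to 4. Its groups did not overlap, yet the difference of -0.40 ± 0.13 (SE; 95% interval -0.69 to -0.10) missed the 0.01 threshold (limma adjusted p = 0.163). Counting it, 5 Hox genes had Gen values entirely below the control values and 0 entirely above, where 6.43% of all probes were entirely below and 5.92% entirely above. For each of these 5 the exact two-sided permutation p was 0.0286, the smallest that 4 against 4 arrays allow. Groups that do not overlap always give this value, so it adds nothing to the non-overlap. Hoxb3 was at -0.26 (95% interval -0.50 to -0.01, limma adjusted p = 0.243) and Hoxb7 at -0.16 (95% interval -0.42 to 0.10).

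Toward both ends of HoxB the values did not lie below zero throughout. Hoxb8 was at 0.38 with an interval from -0.53 to 1.296, and the 2 Hoxb9 probes were at 0.36 and 0.38 (limma adjusted p = 0.411 and 0.214). Hoxb2 had probes of opposite sign: the probe to its reference transcript gave -0.12 (95% interval -0.56 to 0.32), and a probe to another transcript filed under the same name gave 0.39 (95% interval -0.44 to 1.22). The latter is placed on the minus strand, opposite to the other HoxB probes, so it need not read Hoxb2 mRNA.

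From Hoxa2 to Hoxa7, the anterior and central HoxA probes ranged from -0.15 to 0.28 and none was called. Hoxa7 was among those nearest to zero, at 0.01 (95% interval -0.37 to 0.39), an interval that leaves room for a difference in either direction. Hoxa3 had 2 probes of opposite sign, at 0.09 and -0.15, both with intervals spanning zero. Next to these, the step from Hoxa7 to Hoxa9 was a fall of 0.67 in the log2 ratio of Hoxa9 over Hoxa7, a quantity that no scaling between arrays can move. The exact two-sided permutation p was 0.0571, or 0.714 after adjustment over 25 pairs of neighbors, and the groups overlapped.

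HoxC and HoxD together had 12 tested probes, of which 3 were below zero, and none was called at 0.01. Within HoxC, Hoxc4 had the highest difference of all Hox probes, at 1.304 ± 0.59 (SE; 95% interval -0.05 to 2.65; limma adjusted p = 0.277). This rested largely on 1 array: signals were 743, 1931, 1278 and 798 in control replicates 1 to 4 and 1145, 2121, 2610 and 8570 in Gen replicates 1 to 4. Hoxc5, Hoxc6, Hoxc8 and Hoxc9 lay between 0.06 and 0.31. Hoxc10, a posterior gene of hindlimb and lumbar levels, ran the other way at -0.80 ± 0.30 (SE; 95% interval -1.50 to -0.11; limma adjusted p = 0.212). Its signals were dim, at 70.0, 156, 159 and 97.9 in control replicates 1 to 4 and 56.4, 97.6, 62.2 and 53.6 in Gen replicates 1 to 4, and the groups overlapped.

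In HoxD the anterior and central members Hoxd3, Hoxd4 and Hoxd8 were at 0.41, 0.34 and 0.12. Hoxd3 was the nearest of these to a call (limma adjusted p = 0.223), with 166 to 226 in controls and 225 to 321 in Gen-treated mice. Hoxd9 was at -0.13 and -0.38 at its 2 probes. For Hoxd10, a paralog of Hoxa10 and Hoxc10, the difference was 0.01 with an interval from -0.97 to 1.00, so these arrays could not resolve a change smaller than about that size.

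**Figure D3:**
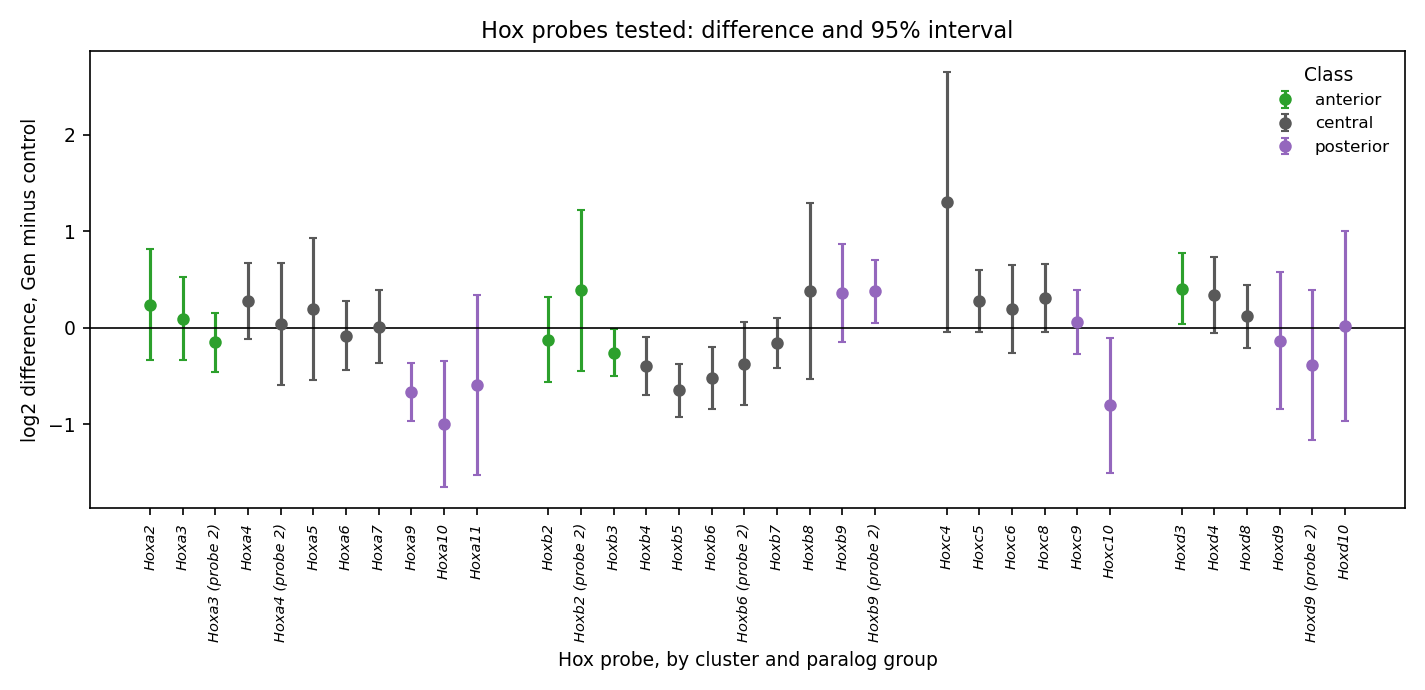
Log2 difference (Gen minus control) with its 95% interval for 34 of the 35 Hox probes tested, ordered by cluster and paralog group and colored by class. Intervals lie wholly below zero for Hoxa9, Hoxa10, Hoxb3, Hoxb4, Hoxb5, Hoxb6 and Hoxc10 and wholly above zero for Hoxd3 and the second Hoxb9 probe.

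By class, the median log2 difference was 0.17 for the 8 anterior probes, 0.12 for the 17 central probes and -0.26 for the 10 posterior probes. These medians moved with single arrays: the anterior one was 0.0051 without control replicate 1, 0.28 without control replicate 4 or Gen replicate 2 and 0.11 without Gen replicate 3. The central one was 0.0056 without control replicate 2 and 0.21 without control replicate 4. The posterior one was -0.50 without Gen replicate 2, -0.43 without control replicate 1, -0.16 without control replicate 2, -0.17 without control replicate 3 and -0.08 without Gen replicate 4. Probes lower at p under 0.01 numbered 0 of 8, 2 of 17 and 2 of 10 in that order. The posterior paralogs did not share one direction across clusters: in group 9 the brightest probes of Hoxa9 and Hoxd9 were at -0.66 and -0.13 and those of Hoxb9 and Hoxc9 at 0.36 and 0.06. In group 10, Hoxa10 and Hoxc10 were at -1.001 and -0.80 while Hoxd10 was at 0.01. The posterior median moved to -0.02 without scaling between arrays, a setting that moved the median of all probes to 0.26, and to 0.04 when arrays were scaled to smooth muscle markers.

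Over 25 pairs of adjacent tested genes, the log2 ratio of neighbors on the same array is free of scaling. Only the ratio of Hoxb7 over Hoxb6 separated the groups, being 0.36 higher in Gen-treated mice (exact two-sided permutation p = 0.0286, adjusted p = 0.714 over the 25 pairs). For Hoxa10 over Hoxa9 the change was -0.34 (exact permutation p = 0.200), and for Hoxb6 over Hoxb5 it was 0.13 (exact permutation p = 0.457).

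Posterior members also varied together within a group. In 6 of the 8 tested posterior genes (75%) control replicates 2 and 3 were the highest controls, beside 13.3% of all probes tested, 3 of 15 central genes and 0 of 6 anterior genes. Gen replicate 2 was the highest Gen array in 4 of the 8, beside 26.7% of all probes. This order was not planned and was picked after the posterior values were seen, so the posterior counts are a description and no test. Smooth muscle markers showed the same order: control replicates 2 and 3 were highest in 6 of 7 (Acta2, Myh11, Cnn1, Tagln, Actg2 and Smtn, but not Des), and Gen replicate 2 was highest in 6 of 7. Macrophage markers showed it in part, with 3 of 5 and 5 of 5, while Gen replicate 2 alone was also highest in 7 of 7 oocyte and 5 of 7 B cell markers. The summed muscle signal was 1061000, 1420000, 1412000 and 1152000 in control replicates 1 to 4 and 1005000, 1184000, 875700 and 1087000 in Gen replicates 1 to 4, with all 7 below zero (median -0.29), none called, and 4 of 7 below zero without scaling between arrays.

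The part of muscle content in the Hox differences was not tested. Scaled marker signal need not follow the amount of muscle, and the study's histology on GD2 described thickened muscle in Gen-treated oviducts. When every array was scaled to the 7 muscle markers, the differences were -0.37 for Hoxa9 (limma adjusted p = 0.206), -0.70 for Hoxa10 (limma adjusted p = 0.109), -0.35 for Hoxb5 (limma adjusted p = 0.307) and -0.22 for Hoxb6 (limma adjusted p = 0.459), and none passed 0.01 before adjustment. That scaling moved the median of all probes to 0.32 and was chosen after the shared order had been seen.

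**Figure D4:**
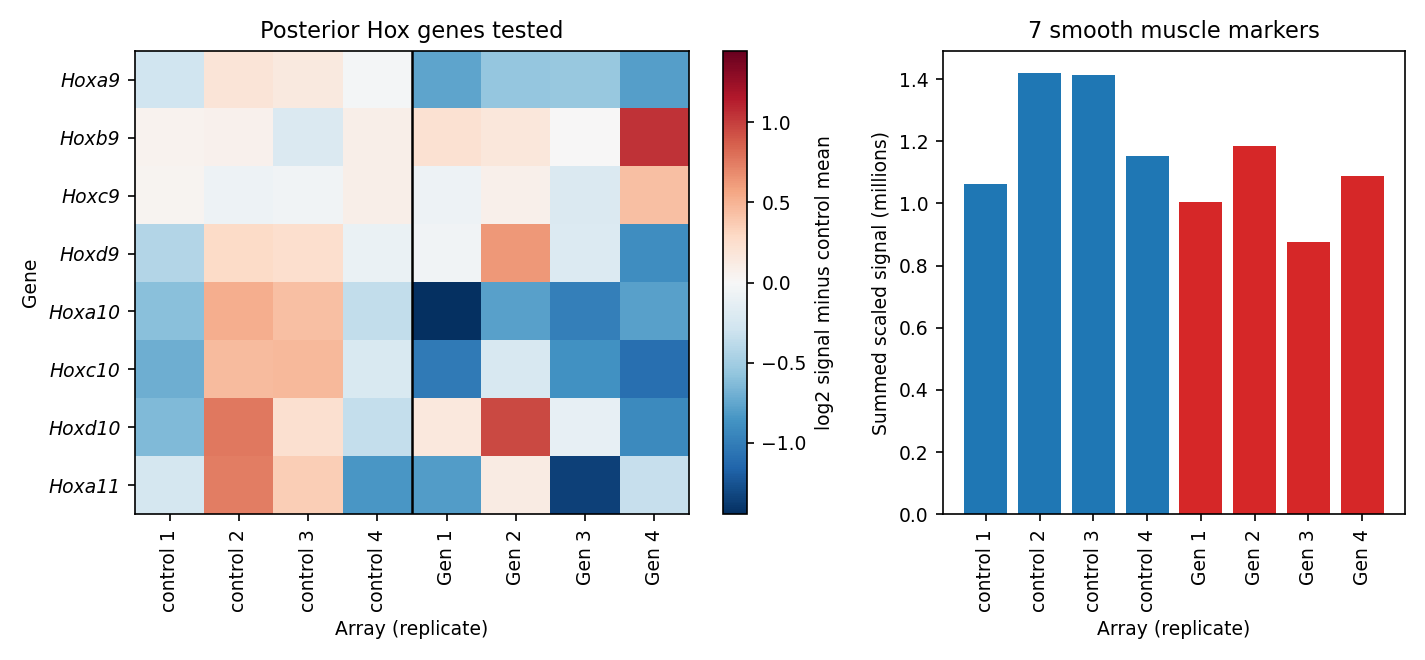
Left, log2 signal minus the control mean (color) for the 8 tested posterior Hox genes (rows) on the 8 arrays (columns); right, summed scaled signal of 7 smooth muscle markers on the same arrays, controls in blue and Gen in red. Control replicates 2 and 3 are highest among the controls in most rows and in the bars, and Hoxa9, Hoxa10 and Hoxc10 are below zero on all 4 Gen arrays.

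Markers of other cell types were set beside the Hox values, against 3.33% of all probes called lower and 3.83% called higher. Markers of ovarian steroidogenic cells summed to 3232 to 28170 in controls and 31750 to 140400 in Gen-treated mice, with all 6 tested above zero (median 2.85) and 4 called higher. Oocyte and embryo markers summed to 402.7 to 4783 and 4860 to 31570 (7 of 7 above zero, median 2.997, none called), and B and plasma cell markers to 13500 to 31130 and 48670 to 72170 (7 of 7 above zero, median 1.08, 2 called higher). Lhcgr, among the 4 called, was detected on 0 control and 4 Gen arrays. Bmp15, Cd79a and Fshr were detected on 1 and 4, and Zp2, Oosp1, Zar1 and Nlrp5 on 2 and 4. These 8 markers passed the detection filter only with the Gen arrays, so their signs were largely set by it. Macrophage markers had 2 of 5 called higher, epithelial markers 1 of 6 called lower (Krt19), and stromal, ciliated, secretory and squamous markers none. The part of ovarian, oocyte and immune RNA in the Hox differences was not tested.

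Library-wide facts bear on every value. Probes well above background numbered 25391 to 28949 on the control arrays and 29539 to 31485 on the Gen arrays, and the 75th percentile used for scaling was 1908 to 2432 and 2149 to 3772. By the scan names in the labels, all controls shared 1 slide and all Gen arrays a different one, which means that an effect of the slide and one of the treatment cannot be told apart. The number of arrays limits the precision.

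Genes that work with or upon the clusters were taken from 5 lists. Over these lists, 4 of 73 tested genes were called lower at 0.01 (5.48%) and 2 higher (2.74%), beside 3.33% and 3.83% of all probes. Of 9 Hox cofactors of the Pbx, Meis and Pknox families, which bind DNA with Hox proteins, 0 were called and 2 were above zero (median -0.13). Among 28 tested Polycomb and trithorax genes, which keep Hox clusters silent or active, 1 was called lower and 1 higher. Phf19, a Polycomb-associated protein, had 738, 553, 593 and 483 in control replicates 1 to 4 and 337, 428, 312 and 293 in Gen replicates 1 to 4, a difference of -0.79 (limma adjusted p = 0.0732). Cbx7, a chromobox protein of a Polycomb complex, had 5072, 4429, 5289 and 5017 against 6244, 6129, 7579 and 7250, a difference of 0.45 (limma adjusted p = 0.0950). Neither pair of groups overlapped.

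Of 11 tested upstream regulators, 2 were lower and 1 was higher at 0.01, beside 3.33% lower and 3.83% higher over all probes. Cyp26a1, which breaks down the retinoic acid that induces Hox genes, had 12650, 16080, 11890 and 13580 in control replicates 1 to 4 and 5514, 1416, 5385 and 3105 in Gen replicates 1 to 4, a difference of -1.99 ± 0.41 (SE; limma adjusted p = 0.0667), and it alone of these called genes was called at 0.01 in all 20 alternative settings. Pgr, the progesterone receptor, was at -0.64 (limma adjusted p = 0.115), with 324 to 414 in controls and 172 to 282 in Gen-treated mice. Yy1, a DNA-binding protein linked to Polycomb, was at 0.35 (limma adjusted p = 0.120), with 4829 to 5466 and 5914 to 6906. Esr1, the estrogen receptor, missed the threshold at -0.41 (limma adjusted p = 0.141). The caudal genes Cdx2 and Cdx4 were not detected on any array.

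Among 7 tested genes that others have described as Hox targets or partners in the reproductive tract, 1 was called. Over all probes, 3.33% were called lower and 3.83% higher. Wnt5a, a signaling ligand of the tract's stroma, was at -0.61 (limma adjusted p = 0.0804), with 333 to 401 in controls and 194 to 279 in Gen-treated mice. The 18 tested genes that flank the clusters had 0 calls at 0.01, with 10 above zero and a median of 0.09. Skap1, beside HoxB, was at -0.65 (limma adjusted p = 0.204), and Evx2, beside HoxD, at 0.31 (not called). No gene of these lists had an adjusted p under 0.05.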

How the data were processed

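The authors hybridized 8 RNAs, one an array, and deposited Agilent Feature Extraction (version 9.5, per the labels) files. The processed signal in them is a background-subtracted intensity on a linear scale. The deposited series table held the same intensity in all 45018 spots of each array. Here log2 signals were scaled to each array's 75th percentile, flagged outlier spots were left out, spots of a probe were averaged, and the 29560 noncontrol probes well above background on at least 4 of 8 arrays were fitted with limma 3.58.1 (R 4.3.3), with Benjamini-Hochberg adjustment over all of them. Control probes were left out. A gene's brightest probe represents it. Per-array values are given for Hox genes with p under 0.01 or non-overlapping groups and for Hoxa9, Hoxa10, Hoxa11 and Hoxa13, and list genes are named at p under 0.01. Esr1, Skap1, Evx2 and Cdx genes were named after their values were seen. Members and lists were chosen with earlier results of these data known. The methods describe the replicates as biologically independent, with the number of mice behind an array not given in the sources used here. Alternatives covered scaling, background, filter, test and single arrays. Some items are not reported here.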

Additional observations from a re-analysis of the deposited data

Results flagged for a closer look

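Within groups of 4 arrays, 2 of 58 sets (29 tested genes in 2 groups, 3.45%) held an array whose gap to its nearest neighbor exceeded the critical share of the group's range, where chance gives about 1 in 20. For Hoxb9, control replicate 3 read 145.1 beside 173.8 to 177.8 in the other controls (gap 88.8% of the range of log2 signals). For Hoxc6, Gen replicate 4 read 6949 beside 4668 to 4977 in the other Gen arrays (gap 83.9% on the log2 scale).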

How the results depend on the processing

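Counts of Hox probes lower at p under 0.01, higher at p under 0.01, called at adjusted p under 0.05 and with non-overlapping groups were 4, 0, 0 and 5, with a median of 0.037. Without scaling between arrays they were 0, 1, 1 and 0, with a median of 0.278, and all probes shifted to 0.26. Lower calls over all probes then fell from 985 to 221, and the adjusted share rose from 0.9% to 3.47%. With scaling to smooth muscle markers, added after the data were seen, they were 0, 1, 0 and 4, with a median of 0.334. Lower calls over all probes were then 166, and the adjusted share was 3.54%. With all noncontrol probes they were 10 lower, 8 adjusted and 11 non-overlapping, with a median of -0.0829; of those 10, 6 came from probes at background on all 8 arrays, and the adjusted calls over all probes went from 266 to 6674. Adjusted calls numbered 2 with normexp background correction (beside 1.64% of all probes) and 2 with an intensity trend and robust fit (beside 1.38%). They numbered 1 with probes detected on all 8 arrays (beside 1.25%) and 1 with probes detected on all 4 arrays of a group (beside 1.11%). There was also 1 with a floor on small signals (beside 1.1%) and 1 with probes averaged by gene (beside 1.23%). The main settings called 0.9% of all probes. Leaving out single arrays gave 2 to 6 lower, 0 to 1 higher, 0 to 1 adjusted and 5 to 8 non-overlapping probes, with medians from -0.0251 to 0.0867. Over all probes, lower calls then ranged from 533 to 1116 and adjusted calls from 0.00677% to 0.93%. The share of all probes without overlap is not given for these fits, and fewer arrays separate more easily. The methods' t-test gave 3 lower Hox probes and 1747 of all probes at 0.01, and 0 and 11 after Benjamini-Hochberg adjustment. With the replicate number as a block, the Hox counts were again 4, 0, 0 and 5 and the adjusted calls over all probes fell from 266 to 3. Hoxb6 then lost its call at 0.01 (limma adjusted p = 0.217), so the 4 included a Hox probe not called in the main fit. The non-overlap count does not use the block and could not change. The replicate numbers did not pair the arrays, as the correlations of same-numbered deviations were -0.08, 0.04, -0.03 and -0.13. Signals near background limit what can be said of groups 12 and 13.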
